A study of Homo sapiens with 4 samples.

Results

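CTCF and the cohesin complex together shape how chromosomes fold. Cohesin is a ring that extrudes loops of chromatin and holds sister chromatids together, and CTCF is a zinc finger protein that stops the ring at its own binding sites and so fixes loop ends and insulates neighbouring genes. The ring consists of the ATPases SMC1A and SMC3, the closing subunit RAD21 and 1 of the STAG subunits, STAG1 or STAG2. NIPBL loads cohesin and drives its ATPase, WAPAL (also called WAPL) releases it from chromatin, and PDS5A and PDS5B bind the ring and regulate both its release and its stable hold. SWI/SNF remodelling complexes that contain BRD9 are known to sit at CTCF sites among others, which is the reason for looking at these transcripts after BRD9 loss.

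The 10 genes were chosen by symbol, as CTCF and 9 genes of the cohesin ring and its loading and release, and all 10 were found among the 57820 gene models and passed the filter on low counts with 15288 genes in total. RNA sequencing was carried out on 4 libraries of G401, an established rhabdoid cell line of the kidney that lacks SMARCB1. The libraries comprised 2 of cells with a BRD9 knockout (BRD9 KO) and 2 of cells with the LacZ control. The methods of the study describe lentiviral Cas9 with a guide and drug selection, and neither the time of harvest nor whether these cells were a pool or a clone is given in the sources used here. Estimated counts summed to between 15053195 and 19559200 per library. SMARCB1 had 0 counts in all 4 libraries, so that, by counting error alone, up to 0.199 counts-per-million (CPM) could be missed at the lowest depth. VIM, the vimentin gene used as a marker of this line, stood between 1269 and 1797 CPM and fell by 0.49 on the log2 scale in BRD9 KO (edgeR quasi-likelihood test, adjusted p = 1.25e-18). The leukocyte markers PTPRC and CD3E had 0 counts in every library, and the epithelial markers EPCAM and CDH1 had at most 6. The targeted BRD9 transcript kept 55.1% of its control level, with 29.4 and 26.8 CPM in the knockout libraries and 48.2 and 53.8 CPM in the control libraries. It fell by 0.86 on the log2 scale (SE 0.07, edgeR adjusted p = 2.84e-09), and some BRD9 exons share bases with ZDHHC11.

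RefSeq promoter windows, 250 bases before to 50 after the annotated start on GRCh38.p14, were found for 9 of the 10 genes. RAD21, whose transcript passed the test below, had no window and was not searched. Windows are shown for CTCF, NIPBL and PDS5A, whose transcripts also passed, and for STAG1 and PDS5B, which hold the first of the CTCF forms searched. The letters CAGNGGGC, a core of that motif, were searched on both strands and marked in capitals, as were a second form, CAGNTGGC, chosen after the windows had been read, and CCGGAAG, the core that ETS factors bind. The marked matches do not overlap each other.
CTCF: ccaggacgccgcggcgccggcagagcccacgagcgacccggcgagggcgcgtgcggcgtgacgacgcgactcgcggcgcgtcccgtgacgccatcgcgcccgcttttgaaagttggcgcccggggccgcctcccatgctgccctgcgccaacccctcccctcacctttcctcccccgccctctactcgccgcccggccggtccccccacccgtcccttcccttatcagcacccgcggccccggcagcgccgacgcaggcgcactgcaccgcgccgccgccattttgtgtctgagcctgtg
NIPBL: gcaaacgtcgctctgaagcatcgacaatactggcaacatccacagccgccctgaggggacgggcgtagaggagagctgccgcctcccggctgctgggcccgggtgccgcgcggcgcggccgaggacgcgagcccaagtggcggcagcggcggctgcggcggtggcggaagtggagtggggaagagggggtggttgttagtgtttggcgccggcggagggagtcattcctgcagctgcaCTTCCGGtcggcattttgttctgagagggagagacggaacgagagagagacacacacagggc
PDS5A: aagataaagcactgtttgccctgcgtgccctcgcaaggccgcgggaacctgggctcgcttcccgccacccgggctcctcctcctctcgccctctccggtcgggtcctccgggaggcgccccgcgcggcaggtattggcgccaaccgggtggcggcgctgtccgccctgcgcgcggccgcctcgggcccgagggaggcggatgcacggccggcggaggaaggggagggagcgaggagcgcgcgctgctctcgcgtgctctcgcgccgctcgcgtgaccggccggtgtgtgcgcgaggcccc
STAG1: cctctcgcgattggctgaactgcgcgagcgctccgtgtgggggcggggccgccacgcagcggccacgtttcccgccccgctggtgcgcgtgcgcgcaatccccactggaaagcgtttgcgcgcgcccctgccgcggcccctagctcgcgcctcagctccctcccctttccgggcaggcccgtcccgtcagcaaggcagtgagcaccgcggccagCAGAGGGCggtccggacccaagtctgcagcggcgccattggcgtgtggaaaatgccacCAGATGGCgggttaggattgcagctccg
PDS5B: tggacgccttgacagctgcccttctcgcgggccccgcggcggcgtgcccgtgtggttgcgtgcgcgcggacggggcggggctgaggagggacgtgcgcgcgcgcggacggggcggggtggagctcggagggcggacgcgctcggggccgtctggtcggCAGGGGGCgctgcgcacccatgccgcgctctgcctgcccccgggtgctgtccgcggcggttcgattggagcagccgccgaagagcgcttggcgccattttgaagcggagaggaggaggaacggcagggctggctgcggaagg

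The windows are chr16:67562276-67562575 (plus strand) for CTCF, chr5:36876519-36876818 (plus strand) for NIPBL, chr4:39977862-39978161 (minus strand) for PDS5A, chr3:136752329-136752628 (minus strand) for STAG1 and chr13:32586202-32586501 (plus strand) for PDS5B, all on GRCh38.p14. The first CTCF form was in the windows of STAG1, 36 bases before the start, and PDS5B, 92 bases before it, and 13.2% of all genes with a window hold it. The second form was in STAG1 as well, 22 bases after the start, and in 1 of the STAG2 windows, 33 bases before it, against 8.38% of all genes. The ETS core lay 12 bases before the start in NIPBL, where it reads on the opposite strand, and was also found in SMC1A, against 12.2% of all genes. No window of the 9 genes held the AP-1 letters TGANTCA, the CRE letters TGACGTCA or the NRF1 letters GCGCATGC, which 9.37%, 2.25% and 3.68% of all genes hold. Member windows held between 56.0% and 76.3% G and C, against a median of 58.7% over all 35116 windows. These matches are descriptions of letters, and no binding was measured in these libraries.

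The genes lie on 8 chromosomes and share no locus. On GRCh37, the sequence of hg19, CTCF spans 67596370 to 67673080 on the plus strand of chromosome 16. The ring genes are SMC1A (chromosome X, 53401070 to 53449677, minus strand), SMC3 (chromosome 10, 112327442 to 112365806, plus strand), RAD21 (chromosome 8, 117858173 to 117887015, minus strand), STAG1 (chromosome 3, 136055078 to 136471245, minus strand) and STAG2 (chromosome X, 123094062 to 123556514, plus strand). Of the regulators, NIPBL spans 36876871 to 37066515 on the plus strand of chromosome 5 and WAPAL spans 88195013 to 88281549 on the minus strand of chromosome 10. PDS5A spans 39824483 to 39979576 on the minus strand of chromosome 4 and PDS5B spans 33160589 to 33352157 on the plus strand of chromosome 13. Exons of RAD21, SMC1A and STAG1 overlap exons of UTP23, RIBC1 and PCCB on the opposite strand, and reads of such shared bases cannot be assigned by strand, since the library kit named does not mark it. The count of a member rested on 765 to 6557 reads per library, and the deposited posterior standard deviation of that count, which measures reads split between similar genes, was at most 0.765% of the count, in STAG1.

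Per length, the closing subunit RAD21 was the most abundant transcript of the group and STAG1 the least. Levels are given as transcripts-per-million (TPM), the scale on which different genes can be compared. RAD21 averaged 130 TPM over the 4 libraries, PDS5A 90.0, SMC3 88.8 and SMC1A 79.5, so that the ATPases and PDS5A formed a second level. STAG2 averaged 59.1 TPM. A lower level held WAPAL at 32.4, CTCF at 29.2, NIPBL at 26.0, PDS5B at 18.1 and STAG1 at 16.6 TPM, and the whole range from RAD21 to STAG1 was 7.82-fold. RAD21 lay between the 92.2 and 93.3 percentiles of all genes tested and STAG1 between the 47.2 and 52.6 percentiles. Of the 9 pairs of neighbours in this order, 5 did not overlap over the 4 libraries, and the 4 that did were PDS5A with SMC3, WAPAL with CTCF, CTCF with NIPBL and PDS5B with STAG1.

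**Figure D1:**
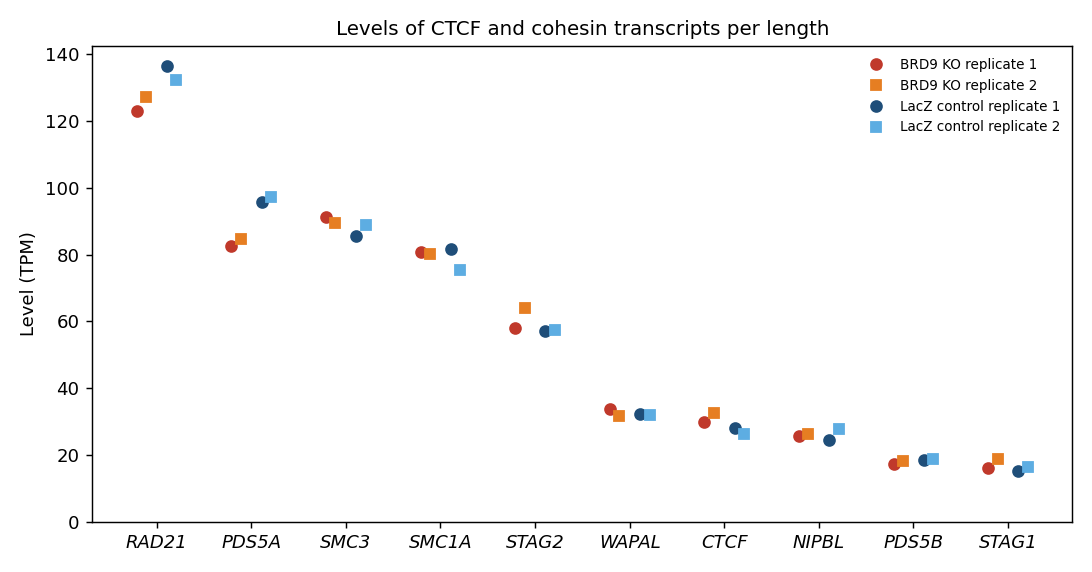
Level in TPM (linear axis from 0) of the 10 genes in each of the 4 libraries, ordered by the mean over all libraries. RAD21 sat between 123 and 136 TPM in every library, and STAG1 between 15.2 and 18.7 TPM.

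The order of SMC3 and PDS5A differed between the groups. In LacZ control cells PDS5A stood at 95.6 and 97.3 TPM, above SMC3 at 85.5 and 88.7 TPM. In BRD9 KO cells PDS5A stood at 82.6 and 84.5 TPM, below SMC3 at 91.4 and 89.4 TPM. The difference between these orders was not tested. The summed level of all 10 genes was 558 and 573 TPM in BRD9 KO against 575 and 572 TPM in LacZ control, so that the groups overlapped. In CPM the sum was lower without overlap, at 1567 and 1583 against 1638 and 1645. The largest differences in mean CPM were those of PDS5A, at 336.3 against 380.4, and RAD21, at 268.7 against 293.2. The means of CTCF, STAG1, SMC3 and WAPAL were higher in BRD9 KO.

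In BRD9 KO cells CTCF was modestly higher, RAD21, NIPBL and PDS5A were modestly lower, and the other 6 genes did not pass the test. These are small differences: the called genes differed from control by between 8.33% and 14.4% of the mean CPM. At an adjusted p under 0.05, 4 of the 10 genes were called (1 higher, 3 lower), beside 38.6% of all genes tested (20.5% higher and 18.1% lower), so the share called was close to the background. The median log2 fold change was -0.03 over the 10 genes and -0.01 over all genes, and the median size was 0.11 against 0.18. Of all genes tested, 46.8% changed by more than the largest change in the group. The 2 CPM values of a group did not overlap those of the other in 7 of the 10 genes (2 higher, 5 lower), beside 68.6% of all genes (34.1% higher and 34.5% lower). In TPM they did not overlap in 6 of the 10, beside 61.5% of all genes (31.3% higher and 30.2% lower). DESeq2 called 3 of the 10 genes, beside 23.9% of the 13806 genes to which it gave an adjusted p (13.5% higher and 10.5% lower). Limma on log2(TPM + 1) called 1, beside 16.0% of all genes (8.77% higher and 7.21% lower). In bulk RNA a change in the make-up of the cells and a change per cell cannot be told apart. The labels do not say whether replicates came from separate cultures, so the p-values measure the spread between these libraries only.

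**Figure D2:**
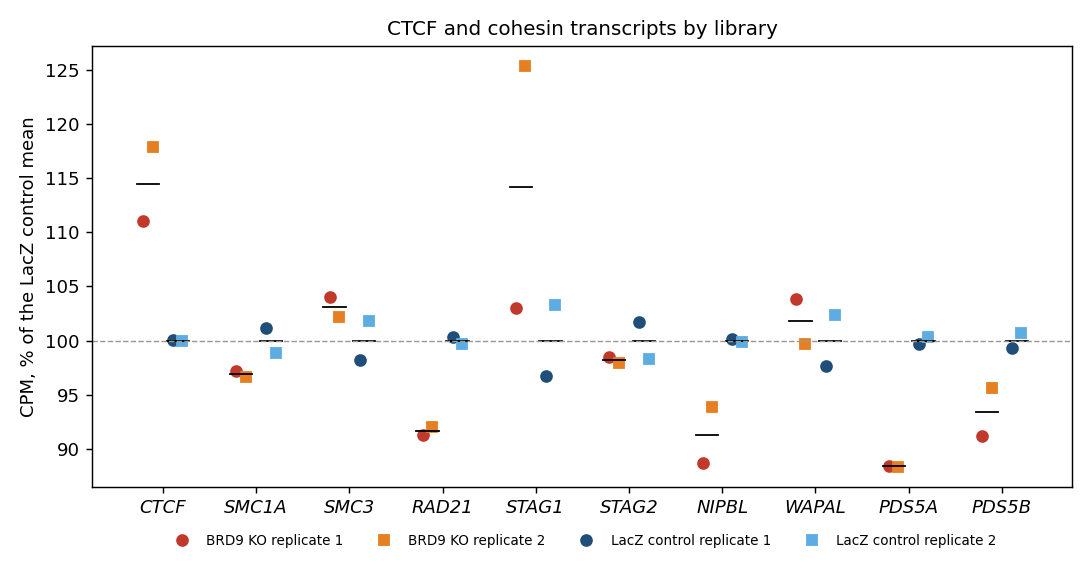
CPM of each gene as a percentage of its LacZ control mean (vertical axis, not starting at 0) in the 2 BRD9 KO and 2 LacZ control libraries, with a black line at each group mean. CTCF lay above both controls in both BRD9 KO libraries, while RAD21, NIPBL and PDS5A lay below, and STAG1 was high in BRD9 KO replicate 2 alone.

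CTCF, the insulator protein, was the member with the only called rise. It stood at 66.5 CPM in BRD9 KO replicate 1, 70.6 CPM in BRD9 KO replicate 2 and 59.9 CPM in both LacZ control replicates, so the groups did not overlap. Mean CPM was 68.5 ± 2.92 against 59.9 ± 0.0208 (SD, n = 2 each), a difference of 14.4%. On the log2 scale the gene rose by 0.19, with a standard error of 0.04 and a 95% interval from 0.10 to 0.28 (edgeR quasi-likelihood test, adjusted p = 0.00144). DESeq2 also called it (adjusted p = 0.0332), while limma on log2(TPM + 1) gave a like rise of 0.20 that did not pass (adjusted p = 0.145). Over 14 alternative fits the adjusted p of edgeR, DESeq2 and limma ran from 2.66e-05 to 0.145, and 12 of them called the gene. In TPM the gene stood at 29.9 and 32.7 against 28.1 and 26.3.

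Of the ring subunits, RAD21 alone passed the test, and it was lower. RAD21, which separase cuts to release sister chromatids, stood at 267.7 and 269.8 CPM in BRD9 KO against 294.1 and 292.2 CPM in LacZ control, with no overlap. Mean CPM was 268.7 ± 1.51 against 293.2 ± 1.31 (SD, n = 2 each), and the gene fell by 0.13 on the log2 scale (SE 0.02, edgeR adjusted p = 5.86e-05). DESeq2 called it as well (adjusted p = 0.00345), whereas limma on log2(TPM + 1) gave -0.10 and an adjusted p of 0.128, the highest of the 14 alternatives, whose lowest was 1.42e-06. In TPM it stood at 123 and 127 against 136 and 132, again without overlap.

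The ATPase SMC1A stood at 166.6 and 165.6 CPM in BRD9 KO against 173.4 and 169.4 CPM in LacZ control, a log2 fold change of -0.04 with a 95% interval from -0.10 to 0.01 (edgeR adjusted p = 0.206). Its partner SMC3 stood at 221.8 and 217.8 CPM against 209.3 and 217.1 CPM, a log2 fold change of 0.04 with an interval from -0.01 to 0.10 (edgeR adjusted p = 0.18). The groups did not overlap in CPM for either ATPase, but neither difference passed, and SMC1A overlapped in TPM, at 80.7 and 80.2 against 81.7 and 75.3.

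STAG1 and STAG2 are alternative subunits of the ring, and neither was called. STAG2 stood at 181.3 and 180.4 CPM in BRD9 KO against 187.3 and 180.9 CPM in LacZ control, a log2 fold change of -0.03 with an interval from -0.08 to 0.03 (edgeR adjusted p = 0.495). Its TPM values went the other way, at 58.0 and 63.9 in BRD9 KO against 57.0 and 57.4 in LacZ control, higher without overlap. Limma on log2(TPM + 1) gave 0.087 for STAG2 and did not call it (adjusted p = 0.377). STAG1 stood at 54.1 and 65.8 CPM against 50.7 and 54.2 CPM, so that only BRD9 KO replicate 2 stood apart from the other libraries. Its log2 fold change of 0.18 was nearly that of CTCF, but the interval from -0.16 to 0.51 was the widest of the group (edgeR adjusted p = 0.329). This value turned on single libraries: without BRD9 KO replicate 1 STAG1 was called at 0.33 on the log2 scale (edgeR adjusted p = 8.91e-05), and without BRD9 KO replicate 2 it was 0.04 (edgeR adjusted p = 0.633), which bound the range over the 14 alternatives.

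Among the regulators, the loader NIPBL and the ring-binding PDS5A were called lower. PDS5A had the smallest adjusted p of the group. Its values were 336.3 and 336.2 CPM in BRD9 KO against 379.2 and 381.6 CPM in LacZ control, with means of 336.3 ± 0.125 CPM and 380.4 ± 1.72 CPM (SD, n = 2 each), or 11.6% lower. The gene fell by 0.18 on the log2 scale (SE 0.02, edgeR adjusted p = 1.59e-07). DESeq2 called it (adjusted p = 3.75e-07) and so did limma on log2(TPM + 1), at -0.21 (adjusted p = 0.0269), and all 14 alternative fits called it. PDS5A is the only member that passed on the TPM scale with limma.

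PDS5B, the paralog of PDS5A, stood at 47.6 and 49.9 CPM in BRD9 KO against 51.8 and 52.6 CPM in LacZ control. The groups did not overlap, but the log2 fold change of -0.10, with an interval from -0.20 to 0.00082, missed the threshold (edgeR adjusted p = 0.111). In TPM the gene was at 17.2 and 18.2 against 18.5 and 18.8.

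NIPBL, the loader, stood at 110.5 and 117.0 CPM in BRD9 KO against 124.8 and 124.4 CPM in LacZ control, without overlap. It fell by 0.13 on the log2 scale (SE 0.03, edgeR adjusted p = 0.00333). This call had the largest adjusted p of the called genes: DESeq2 did not call it (adjusted p = 0.066), nor did edgeR without BRD9 KO replicate 1 (adjusted p = 0.0968), and over the 14 alternatives the adjusted p ran from 0.000672 to 0.975. On the TPM scale the groups overlapped, at 25.7 and 26.3 against 24.4 and 27.8, and limma on log2(TPM + 1) gave -0.0051 (adjusted p = 0.974). WAPAL, the release factor that opposes loading, stood at 114.2 and 109.6 CPM against 107.3 and 112.6 CPM, and its log2 fold change of 0.03 missed the threshold (edgeR adjusted p = 0.599).

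**Figure D3:**
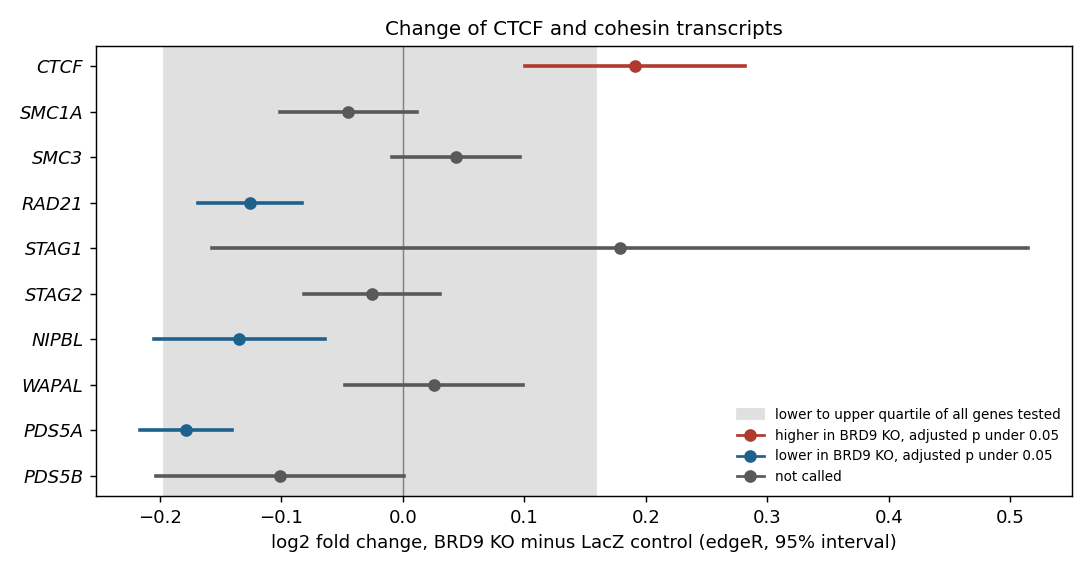
Log2 fold change, BRD9 KO minus LacZ control, with 95% intervals from edgeR, and in grey the lower to upper quartile of all 15288 genes tested, -0.20 to 0.16. CTCF lies to the right of 0 and RAD21, NIPBL and PDS5A to the left with intervals that leave out 0, and the interval of STAG1 runs from -0.16 to 0.51.

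The edgeR intervals give the range of change on the count scale only, under the spread that edgeR shares between genes. For 9 of the 10 genes the whole 95% interval lay within a 1.3-fold change in either direction, and STAG1 was the exception. Limma on log2(TPM + 1) gave values outside these intervals for NIPBL (-0.0051), STAG2 (0.087) and SMC1A (0.037). Of all changed genes in the transcriptome, 65.8% differed by less than 1.3-fold, so small called changes were common.

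The isoform-weighted length, which the quantifier RSEM derives from the share of each annotated transcript, links the CPM and TPM scales. For NIPBL it was 7221 and 7452 bases in BRD9 KO against 8501 and 7439 bases in LacZ control, so that LacZ control replicate 1 stood apart. That library had the lowest NIPBL level in TPM, 24.4, and the highest in CPM, 124.8. STAG2 ran from 4758 bases in BRD9 KO replicate 2 to 5496 bases in LacZ control replicate 1, and the groups overlapped. The groups did not overlap in 4 of the 10 genes, beside 36.6% of genes with more than 1 transcript (19.7% higher and 16.9% lower): the length was higher in BRD9 KO for STAG1 (5625 and 5901 against 5596 and 5552 bases) and PDS5A (6835 and 6670 against 6622 and 6527 bases). It was lower for SMC1A (3502 and 3498 against 3578 and 3778 bases) and PDS5B (4680 and 4634 against 4698 and 4683 bases). Each member has between 2 and 19 annotated transcripts, and whether the lengths reflect isoform use or the estimate of the quantifier was not tested.

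**Figure D4:**
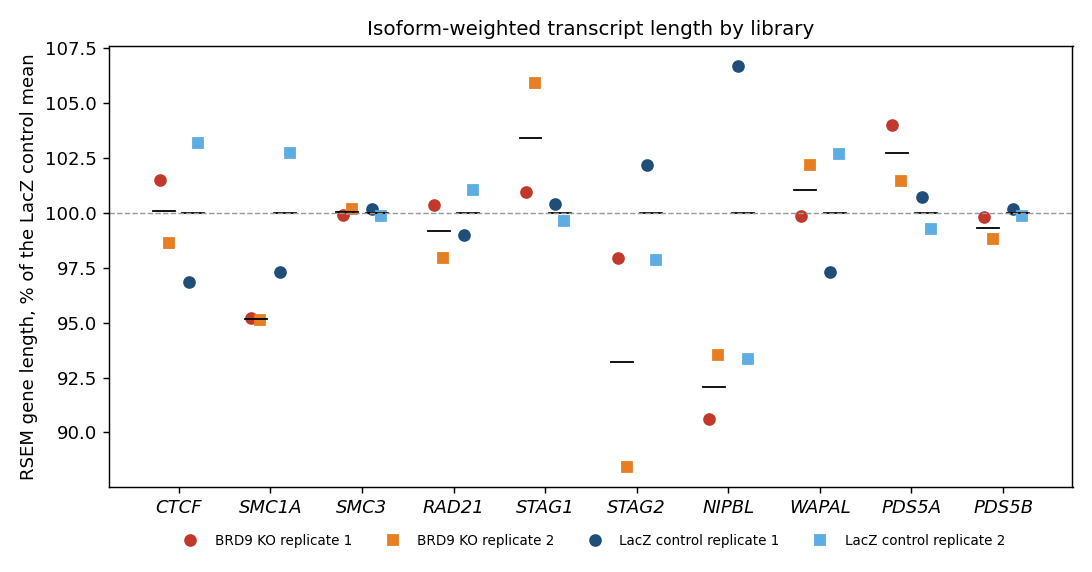
Isoform-weighted gene length as a percentage of the LacZ control mean (vertical axis, not starting at 0) in each library, with a black line at each group mean. LacZ control replicate 1 stands high for NIPBL, at 8501 bases, and BRD9 KO replicate 2 stands low for STAG2, at 4758 bases.

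Ratios of partner genes within a library need no scaling between libraries. The ratio of PDS5A to PDS5B in TPM was 4.82 and 4.66 in BRD9 KO against 5.17 and 5.19 in LacZ control, lower without overlap, a log2 difference of -0.13. The ratio of STAG2 to STAG1 was 3.59 and 3.41 against 3.76 and 3.53, and the groups overlapped. In TPM, STAG1 thus made up between 21.0% and 22.7% of the summed STAG level in all 4 libraries, and PDS5A between 82.3% and 83.8% of the summed PDS5 level. The ratio of the loader NIPBL to the release factor WAPAL, at 0.761 and 0.831 against 0.755 and 0.867, and that of SMC1A to SMC3, at 0.883 and 0.897 against 0.955 and 0.848, overlapped too. With 2 libraries a group, the two-sided exact permutation test cannot go below p = 0.333, and it gave 0.333 for PDS5A to PDS5B, 0.667 for STAG2 to STAG1 and 1 for the other pairs, all 1 after Benjamini-Hochberg adjustment over the 4 ratios. In ratios of CPM, which leave out the length, NIPBL to WAPAL and SMC1A to SMC3 were also lower in BRD9 KO without overlap, by log2 differences of -0.16 and -0.09. PDS5A to PDS5B was lower without overlap there too, by -0.08. The largest log2 difference in CPM was that of STAG2 to STAG1, at -0.21, where the groups overlapped.

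Of 13 further cohesin regulators, among them genes that acetylate, protect or open the ring, 2 rose and 4 fell (46.2% called, beside 38.6% of all genes, 20.5% higher and 18.1% lower). Their median log2 fold change was -0.04, beside -0.01 over all genes. The acetyltransferase ESCO1 rose by 0.28 on the log2 scale, from 54.4 and 49.8 CPM to 65.7 and 60.0 CPM (edgeR adjusted p = 0.000395), though limma on TPM did not call it (adjusted p up to 0.136). PTTG1, the securin that restrains separase, fell by 0.35, from 46.2 and 45.8 CPM to 33.9 and 38.5 CPM (edgeR adjusted p = 9.68e-05). CHTF18, of the clamp loader that serves cohesion, fell by 0.29 (edgeR adjusted p = 0.000341). SGOL1, the shugoshin that protects centromeric cohesin, fell by 0.40 (edgeR adjusted p = 0.00226), and DESeq2 did not call it (adjusted p = 0.0542, the highest over the alternatives, the lowest being 0.00096). Of the 4 meiotic cohesin genes, 2 were tested and neither was called: STAG3 averaged 5.46 ± 0.327 CPM against 5.59 ± 1.34 CPM (SD, n = 2 each), and REC8 1.83 ± 0.166 CPM against 2.07 ± 0.209 CPM.

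Of 16 genes of condensin and the SMC5/6 complex, the sister SMC complexes, with the related SMCHD1 among them, 1 rose and 7 fell. Of the 16, 50% were called, beside 38.6% of all genes (20.5% higher and 18.1% lower), and their median log2 fold change was -0.07. NCAPD2, a condensin subunit, fell by 0.33 on the log2 scale, from 197.3 and 199.7 CPM to 159.3 and 155.7 CPM (edgeR adjusted p = 4.88e-09). The condensin ATPase SMC4 fell by 0.16 (edgeR adjusted p = 5.53e-06) and SMC5 fell by 0.23 (edgeR adjusted p = 0.000182), and limma on TPM called neither (adjusted p up to 0.802 and 0.0808). NSMCE1, a subunit of SMC5/6, fell by 0.54 (edgeR adjusted p = 3.92e-05). The riser was SMC6, at 0.17 (edgeR adjusted p = 0.00248), named after its value was seen. Neither DESeq2 (adjusted p = 0.0617) nor limma on log2(TPM + 1) (adjusted p = 0.189) called it.

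Among other architectural factors the clearest difference was a lower VEZF1. Of 7 tested, 1 rose and 2 fell (42.9% called, beside 38.6% of all genes, 20.5% higher and 18.1% lower), with a median of -0.08. VEZF1, a zinc finger factor linked to insulators, fell by 0.56 on the log2 scale, from 56.3 and 55.9 CPM to 39.0 and 36.9 CPM (edgeR adjusted p = 3.57e-08). MAZ, a zinc finger factor found beside CTCF, fell by 0.20 (edgeR adjusted p = 4.38e-05), though not on the TPM scale with limma (adjusted p up to 0.274). YY1, which bridges enhancers and promoters, rose by 0.09 (edgeR adjusted p = 0.00692), and the call was lost with DESeq2 and when either BRD9 KO replicate 1 or LacZ control replicate 2 was left out (adjusted p of 0.106, 0.0514 and 0.0762, the 3 highest over the alternatives, the lowest being 0.00207). CTCFL, the germline paralog of CTCF, had between 1 and 5 counts per library and was not tested.

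Of 33 genes at loci insulated by CTCF, such as the protocadherin alpha cluster and the imprinted H19 locus, 22 were tested, and 2 rose and 1 fell. Of the 22, 13.6% were called, beside 38.6% of all genes (20.5% higher and 18.1% lower). Their median log2 fold change was 0.13 and their median size 0.39, beside 0.18 over all genes. Depth varied within the list: PCDHB5 had 6 to 11 counts per library and PCDHB9 8 to 17, while PCDHA12 had 604 to 1095. The part of low counts in the share called and in these sizes was not tested. PCDHA12 rose by 0.46 on the log2 scale, from 40.1 CPM in both controls to 56.2 and 54.0 CPM (edgeR adjusted p = 4.2e-07). PCDHA3 was higher by 1.19, at 3.54 and 5.45 CPM against 2.06 and 1.86 CPM (edgeR adjusted p = 0.000687). Protocadherin alpha genes share their last exons, PCDHA12 and PCDHA3 among them, so both rises lie in the same cluster and rest in part on shared reads. The posterior standard deviation of the count reached 3.75% of the count for PCDHA12 and 30.1% for PCDHA3. Limma on TPM did not call PCDHA3 (adjusted p up to 0.517). H19 fell by 2.13 on the log2 scale on counts of 5 and 4 against 10 and 26 (edgeR adjusted p = 0.00497), and without LacZ control replicate 2 it was at -1.38 and no longer called (edgeR adjusted p = 0.211, the highest over the alternatives, the lowest being 0.00129). Limma on log2(TPM + 1) did not call H19 either (adjusted p = 0.0566), and DESeq2 gave it no adjusted p.

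Part of the cohesin machinery acts in dividing cells, so genes of proliferation are given beside it. Of 12 proliferation genes 1 rose and 5 fell (50% called, beside 38.6% of all genes, 20.5% higher and 18.1% lower), with a median log2 fold change of -0.10. TOP2A, the mitotic topoisomerase, fell by 0.24 (edgeR adjusted p = 4.19e-10), MKI67 fell by 0.18 (edgeR adjusted p = 1.97e-06) and BUB1, of the spindle checkpoint, fell by 0.25 (edgeR adjusted p = 4.14e-05). Limma on TPM called neither MKI67 nor BUB1 (adjusted p up to 0.0648 and 0.0592). PCNA, the replication clamp, rose by 0.34 (edgeR adjusted p = 5.43e-09). The summed CPM of the 12 genes was 1757 and 1761 in BRD9 KO against 1852 and 1858 in LacZ control, and in TPM the sums lay closer, at 1230 and 1226 against 1232 and 1237. The part of proliferation in the lower RAD21, NIPBL and PDS5A was not tested.

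**Figure D5:**
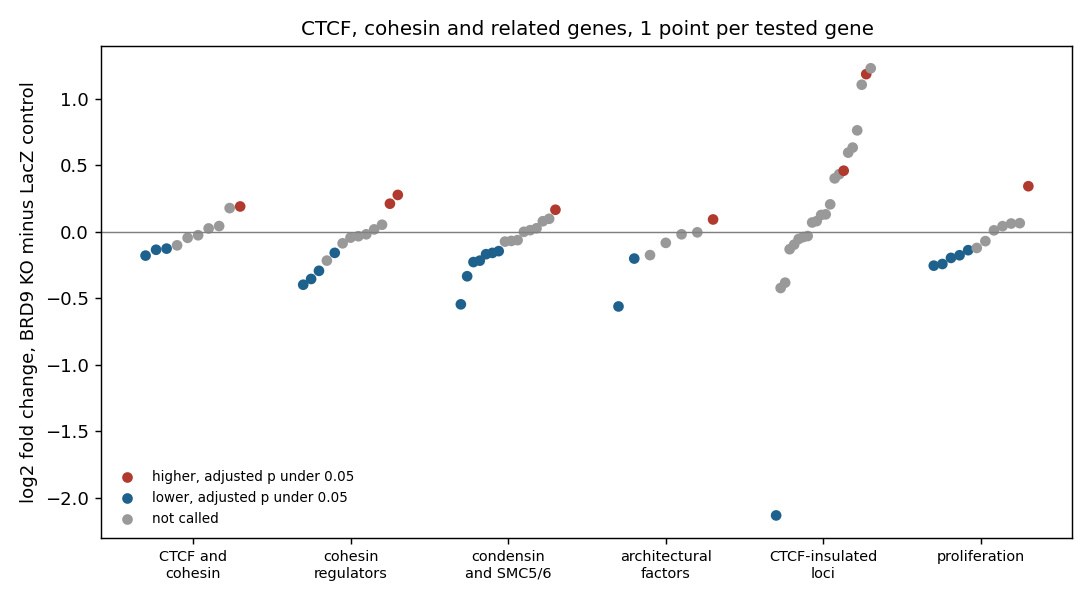
Log2 fold change, BRD9 KO minus LacZ control, of each tested gene in the group of 10 and in 5 related lists, coloured by the edgeR call. The 10 CTCF and cohesin genes lie between -0.18 and 0.19, and the genes at CTCF-insulated loci spread from -2.13 to 1.23. The point at -2.13 is H19, on 4 to 26 counts per library, whereas the 10 genes have 765 to 6557.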

How the data were processed

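The 4 libraries were grouped by their labels into BRD9 KO and LacZ control, 2 each. Per the labels and the methods of the study, the authors prepared libraries with a NEBNext Ultra kit, used STAR for alignment to hg19 and RSEM for quantification of genes (no version is given in the sources used here). Labels and the study name different RNA extractions, and which applied is not settled. The deposited tables hold the RSEM expected count (estimated count) per gene, with no scaling between libraries, the TPM made by the authors, the deposited gene length in bases weighted by isoform, and the deposited posterior standard deviation of the count. RSEM divides reads that match several genes by a model.

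Expected counts were rounded and tested by quasi-likelihood with edgeR 4.0.16 under R 4.3.3 (TMM scaling, filterByExpr, robust dispersion, no covariate, two-sided, Benjamini-Hochberg adjustment over all 15288 genes tested). Fold changes give BRD9 KO relative to LacZ control, and CPM values are TMM-scaled. The edgeR fit was tested on simulated counts. Replicates of a group differed by more than sampling noise (chi-square per degree of freedom 1.57 and 1.60 over genes with at least 40 counts per pair) and were kept apart. Alternatives were DESeq2 1.42.0, limma 3.58.1 (voom, log2(TPM + 1) and log2(TPM + 0.1)), no low-count filter, a minimum of 1 CPM in all 4 libraries, RLE size factors, plain library totals, a replicate block, each library left out, removal of mitochondrially encoded genes and an adjusted p under 0.01. Where a library was left out, the spread of its group is taken from the other group.

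Positions come from GENCODE v44 on GRCh37 and promoter windows from RefSeq. The limit for a count of 0 is 3 counts and covers counting error only. The 10 genes and the related lists were chosen with earlier results of these data known. Named genes were every member, BRD9, SMARCB1, and for each related list, the called genes with the smallest p (at most 4), or its 2 most abundant genes if it had no call. Of the markers of other cells, PECAM1 was not analysed here.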

Additional observations from a re-analysis of the deposited data

How the results depend on the processing

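The 4 calls among the 10 genes became 1 (PDS5A, 0 higher and 1 lower) with limma on log2(TPM + 0.1) and on log2(TPM + 1), since the calls of CTCF, RAD21 and NIPBL were lost there, and the 1 higher gene became 2 with STAG1 added under no filter on low counts (edgeR adjusted p = 0.000384). Leaving out a library in turn gave 4 calls each time, with 1 to 2 higher and 2 to 3 lower. Of 150 recomputed fold changes of the 10 genes, 133 kept direction and side of the threshold, 8 lost a call, 3 gained one and 6 changed sign without a call in either: SMC1A (0.037 on both TPM scales), STAG2 (0.089 and 0.087 on the TPM scales with 0.1 and 1 added), and WAPAL at -0.0039 without BRD9 KO replicate 1 and -0.0065 without LacZ control replicate 1, in a range of -0.0065 to 0.062 over the libraries left out. STAG3, also uncalled, turned to 0.02 without BRD9 KO replicate 1 and 0.23 without LacZ control replicate 2, in a range of -0.26 to 0.23. Of 313 fold changes of the other named genes 20 lost a call, and of 270 counts in the related lists 37 moved by over 1.5 times. The cause was not tested in any of these.

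Over all genes, 5901 were called by edgeR (3127 higher, 2774 lower), against 3303 with DESeq2 (1859 and 1444), 2417 with limma on log2(TPM + 0.1) (1328 and 1089) and 2444 on log2(TPM + 1) (1341 and 1103). With a library left out the count ran from 4173 to 4968 (2318 to 2657 higher, 1855 to 2311 lower). The median log2 fold change of all genes moved by -0.0062 with library totals alone and by 0.0018 with RLE size factors.

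The replicate numbers share no stated culture or day, and the deviations of same-numbered libraries correlated at -0.05, so they were not treated as pairs. With the number as a replicate block edgeR called 6109 genes (3226 higher, 2883 lower) and 5 of the 10 (2 higher, 3 lower), the added one being STAG1 (0.19 on the log2 scale, adjusted p = 0.00164).

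With a library left out, the log2 difference of the ratio of NIPBL to WAPAL ran from -0.13 to 0.075, reversing to 0.039 without BRD9 KO replicate 1 and to 0.075 without LacZ control replicate 2. That of SMC1A to SMC3 ran from -0.10 to 0.069, reversing to 0.069 without LacZ control replicate 1. Those of PDS5A to PDS5B (-0.15 to -0.10) and STAG2 to STAG1 (-0.10 to -0.01) kept their sign. With 2 libraries a group, the error of a gene rests largely on the spread that edgeR shares between genes.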
